A study of Mus musculus with 10 samples.

Results

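Eph receptors and ephrins were examined as 10 genes of a MEX3A RIP-seq experiment in adult mouse neural stem cell (NSC) cultures, namely the A-class receptors Epha3, Epha4, Epha5 and Epha7, the B-class receptors Ephb1, Ephb2 and Ephb3, and the ligands Efna5, Efnb1 and Efnb2. They were chosen by symbol, and all 10 were found among the 15899 genes of the deposited matrix. In RIP-seq, the RNA that comes down with an immunoprecipitated protein is sequenced, here with an anti-FLAG antibody. FLAG cultures (Mex3aFLAG/FLAG) are homozygous for a knock-in that puts a 3X-FLAG peptide on the C-terminus of MEX3A, an RNA-binding protein, at its own locus. WT cultures (Mex3a+/+) come from the same background without the tag, so what they yield is the nonspecific background of the antibody. Both were neurospheres, floating aggregates grown with EGF and FGF from the subependymal zone of mice labelled 10 weeks old. The immunoprecipitation (IP) followed either of 2 protocols, with formaldehyde crosslinking (2 libraries of each genotype) or native, without it (3 of each). No input RNA was analysed here, so a gene's WT level mixes how much of its RNA the cells held with how readily it came down without the tag.

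Eph receptors are the largest family of receptor tyrosine kinases, and their ligands, the ephrins, are themselves held at the cell surface. A-type ephrins are anchored by a lipid (GPI) and B-type ephrins cross the membrane, so contact between neighbouring cells can signal into the receptor-bearing cell (forward) and into the ephrin-bearing cell (reverse). The family is known for repelling growing axons, sorting cells across tissue boundaries and, in the adult subependymal zone, for affecting progenitor proliferation and neuroblast migration.

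The study asked which RNAs MEX3A binds, and MEX-3 proteins are known to recognise a short bipartite motif in 3' UTRs. The MEX-3 recognition element (MRE) was searched in 2 parts, a first of 4 bases that reads A, G or T, then G or T, then AG, and, after 0 to 8 bases of any kind, a second that reads T, then A, C or T, then TA. The search ran on the sense strand of the longest annotated 3' UTR (GENCODE M21, GRCm38), each start of the first part counting at most once. Of the members, 8 of 10 (80%) held a match, against 9631 of 12179 protein-coding genes of the matrix with a 3' UTR (79.1%). The members' 3' UTRs were long, with a median of 3156 nt against 1455 nt, and held 3.40 matches per kb against 2.68. Epha5 gave 34 of the members' 108 matches, and the other 9 members held 2.69 per kb. The study also writes the second part with AT in place of TA at its end, and with that form the numbers were 8 of 10 (80%) against 79.3%, with 3.52 matches per kb, or 2.95 without Epha5, against 2.52. Of the form ending in TA, the match nearest to the 3' end is shown for each member that had any (in Epha5 and Ephb2, where 2 overlapping matches end at the same base, the one that starts further upstream), 5' to 3' on the strand of the gene as genomic DNA letters, with the 2 parts of the motif in capitals, since these are the letters on which a count of candidate sites rests.
Epha3: acatggttcatTTAGTTTAtgttgcacaat
Epha4: gtaataaaGTAGttgccgTATAcaaacctg
Epha5: gttagagacTTAGtaggTATAgaatgttgc
Epha7: tagcactctTTAGgacTCTAttttaattg
Ephb1: aggttgtgaAGAGtctgTCTAacccaaaga
Ephb2: tgtgtttGTAGgagtattTTTAgctgaat
Efna5: acagttcgtgTTAGtTTTAgactattgtt
Efnb2: gcctgtcATAGgtttttttTTTAatctgct

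On GRCm38 these windows lie on the minus strand at chr16:63543626-63543655 for Epha3, chr1:77367185-77367214 for Epha4, chr5:84055684-84055713 for Epha5, chr9:102039404-102039433 for Ephb1, chr4:136647576-136647604 for Ephb2, chr17:62604340-62604368 for Efna5 and chr8:8617550-8617579 for Efnb2, and on the plus strand at chr4:28967083-28967111 for Epha7. With the form ending in TA, Epha4 had its last match 8 nt before the annotated 3' end and Ephb2 44 nt before it, whereas the last match of Epha5 lay 932 nt upstream. With the form ending in AT, the last match of Epha5 lay 315 nt upstream, and that of Efna5 13 nt before the end. Of the form ending in TA, Epha3 had 5 matches within the last 500 nt, Epha4 4 and Epha5 none. Epha5 had the most matches, 34 in 4281 nt (7.94 per kb), and Ephb2, with the longest 3' UTR of the members (7783 nt), had 11 (1.41 per kb). Ephb3 (788 nt) and Efnb1 (1464 nt) had 0.

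The choice of transcript mattered for the motif in Ephb1, Epha5 and Ephb2. The longest annotated 3' UTR of Ephb1 belongs to a short transcript that ends 117064 nt before the end of the gene, and the 3' UTR of the transcript with its longest coding sequence (1358 nt) held 0 matches instead of 7, or 2 with the form ending in AT. By the same criterion Epha5 had 13 matches instead of 34 and Ephb2 had 1 instead of 11. With this transcript for all genes, 7 of the 10 members (70%) had a match against 72.6% of 11978 genes, with 3.14 matches per kb against 2.78. Epha5 gave 13 of these 70 matches, in 1251 nt. With the form ending in AT, 8 of 10 (80%) had a match against 72.2%, with 3.36 matches per kb against 2.58.

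**Figure D1:**
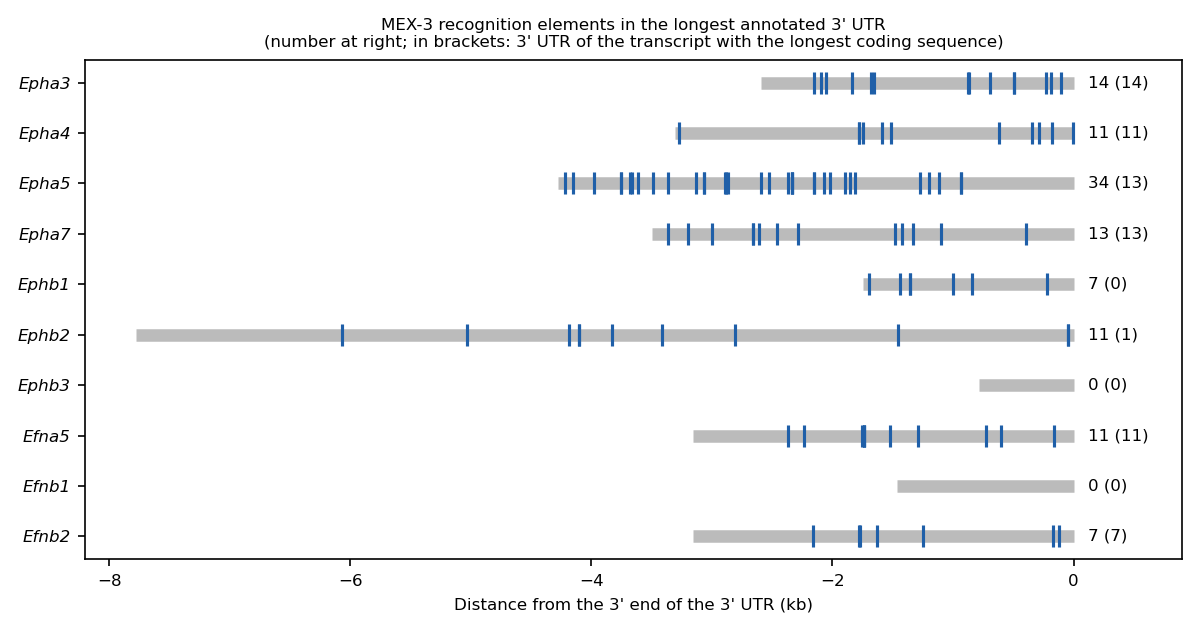
Positions of the MEX-3 recognition element (form ending in TA) along the members' longest annotated 3' UTRs. Grey bars are 3' UTRs aligned at their 3' end (x axis, distance in kb), blue ticks are matches, and the number at right counts them, with the count in the transcript with the longest coding sequence in brackets. Epha5 has 34 matches, none in the last 500 nt, and Ephb3 and Efnb1 have 0.

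The deposited values are log2 expression values with nearly the same distribution in every library, so the number of reads behind a value is unknown. FLAG native 1 had 329 genes tied at its lowest value and FLAG native 3 had 178, against at most 3 in each other library, so low values in those 2 libraries are the least resolved. The RNA of Mex3a itself was higher in FLAG than in WT libraries in both protocols, with log2 fold changes of 1.15 (crosslinked) and 2.11 (native), although limma did not call it (adjusted p = 0.0789 over all libraries) except with array weights (0.0198) or without FLAG native 2 (0.0140) or WT crosslinked 2 (0.0444). All 8 NSC markers were in the matrix, led by Egfr (mean log2 value 10.46), Slc1a3 (8.48) and Nes (7.58), with median log2 fold changes of 0.62 (crosslinked) and 0.98 (native) and none called. Of those 3, Egfr (-0.15 with crosslinking, -0.45 native) and Slc1a3 (-0.29, -0.54) had negative fold changes. With crosslinking the FLAG libraries lay above the WT libraries for 6 of the 8 markers and below for Egfr, and in native conditions above for 1 and below for 2, Egfr and Slc1a3. The summed level of the 8 markers, of which Egfr is the largest part, overlapped between groups, at 11.01 to 11.07 in crosslinked FLAG against 10.98 to 11.18 in WT and 11.16 to 11.51 in native FLAG against 11.34 to 11.44 in WT. Of the other markers, 3 of 5 neuronal, 1 of 4 oligodendrocyte, 3 of 4 microglial, 2 of 4 endothelial, 1 of 2 ependymal and 0 of 2 pericyte markers were held. The summed level of the neuronal markers was 3.55 to 4.41 in crosslinked FLAG against 4.88 to 4.91 in WT and 3.59 to 4.09 in native FLAG against 4.84 to 5.31 in WT, and Rbfox3 was called lower over all libraries (log2 fold change -1.31, limma adjusted p = 0.0127), though not without WT native 1 (adjusted p = 0.0503) or with the replicate number as a block (0.0775). With the trend of fold change with gene length removed, Rbfox3 was -1.08 over all libraries (limma adjusted p = 0.0323). The other neuronal markers held, Snap25 and Syt1, overlapped between FLAG and WT in both protocols. Fewer cells of a type, less RNA per cell and lower recovery in the IP cannot be told apart in these libraries. The part of neuronal RNA in the results below was not tested.

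The members covered most of the range of the matrix. Ephb2, a receptor with roles in axon guidance and synapse formation, had the highest mean value (8.67, above 98.8% of all genes), followed by Ephb1 (7.34), Epha5 (6.46), Epha4 (5.06), Efna5 (4.76), Efnb2 (4.07), Ephb3 (2.29), Epha7 (1.45), Efnb1 (0.83) and Epha3 (-0.09). On the scale of log2 value per kb of exons, on which levels can be set between genes, Ephb2 (5.01) and Ephb1 (4.53) led, with library ranges that overlapped. They were followed by Efna5 (2.74), Epha5 (2.39), Epha4 (2.05) and Efnb2 (1.29), and then by Ephb3 (-0.44), Efnb1 (-0.96), Epha7 (-1.86) and Epha3 (-3.21). Neighbours in this order differed in every library in only 2 places, between Ephb1 and Efna5 and between Efnb2 and Ephb3. In native WT alone the mean of Ephb1 (5.47) lay above that of Ephb2 (4.96). Beyond neighbours, the values of Efnb1, which reached 0.67, overlapped those of Efnb2, which began at 0.55. With coding length in place of exonic length Efnb2 moved above Epha4 and Efnb1 above Ephb3, and with the longest transcript Epha5 moved above Efna5.

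**Figure D2:**
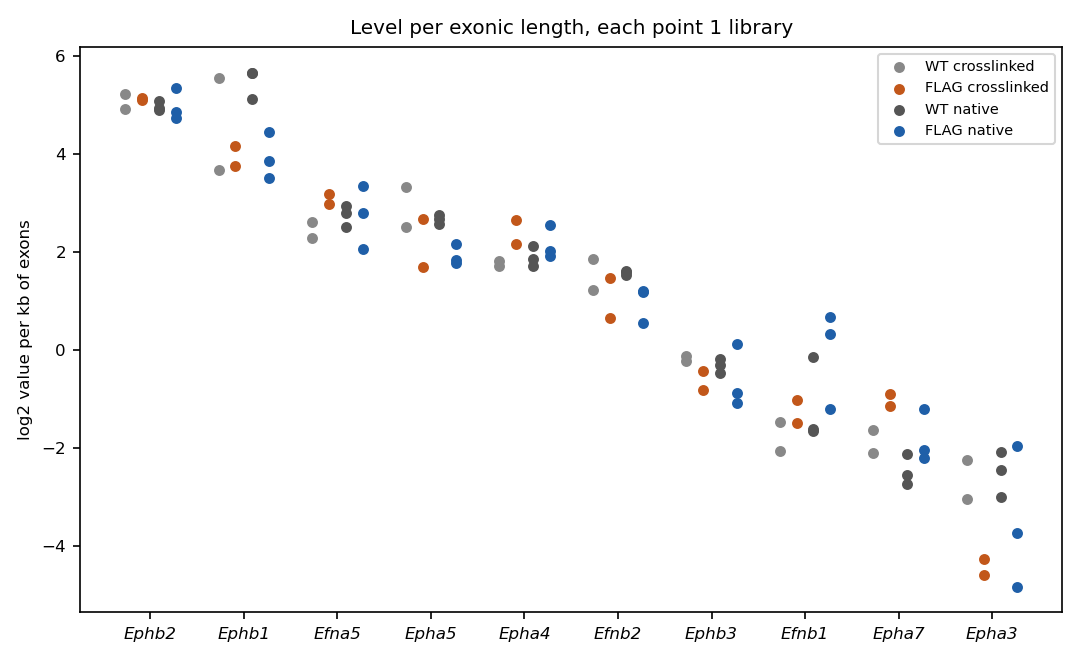
Level of each gene per kb of exons (y axis, log2) in the 10 libraries, in the order of the means, with 1 point per library coloured by group. The points of Ephb2 and Ephb1 lie above those of all other members, and those of Efnb1 reach up to 0.67, past the lowest point of Efnb2 at 0.55.

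No member was called in any comparison, a call being an adjusted p-value under 0.05 (limma, Benjamini-Hochberg over all genes) and an absolute log2 fold change above 0.58. These are the thresholds of the study, which applied DESeq2 to counts and reported genes enriched with both protocols, Mex3a among them. In the main limma fits no gene was called higher within either protocol, so a missing call does not show that a member is unbound. Of all genes, 0% were called in the crosslinked libraries in either direction, 0% were called higher and 0.107% lower in the native libraries, and 0.264% higher and 0.233% lower in a fit of all libraries that allowed for the protocol. With same-numbered libraries of a genotype as a block across protocols, the 42 genes called higher and 37 called lower in that fit became 7 and 8, and again no member was called. At an unadjusted p under 0.05 with the same fold, over all libraries 1 member was higher, Epha7 (7.24% of all genes), and 3 were lower, Epha3, Epha5 and Ephb1 (5.28%). The corresponding counts were 3 higher (2.78%) and 1 lower (0.987%) with crosslinking, and 0 higher (7.77%) and 3 lower (7.06%) in native conditions. The median log2 fold change of the 10 members was -0.20 in crosslinked, -0.16 in native and -0.17 in all libraries, against -0.02, -0.04 and -0.03 over all genes. The crosslinked median was 0.052 without WT crosslinked 1 and -0.020 without FLAG crosslinked 1, and the native one was -0.031 with the trend of fold change with gene length removed. Of the 10 members, 5, 4 and 5 had positive values (46.3%, 47.4% and 46.8% of all genes).

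Sorted by whether FLAG libraries overlapped WT libraries, the members split differently in the 2 protocols. With crosslinking, the FLAG libraries were all above the WT libraries for Epha4, Epha7 and Efna5 (3 of 10, against 19.1% of all genes) and below for Epha3 and Ephb3 (2 of 10, against 19.9%). In native conditions no member was above (8.62% of all genes), and Epha5, Ephb1 and Efnb2 were below (3 of 10, against 10.8%). No member was separated the same way in both protocols (4.84% of all genes above, 4.47% below).

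**Figure D3:**
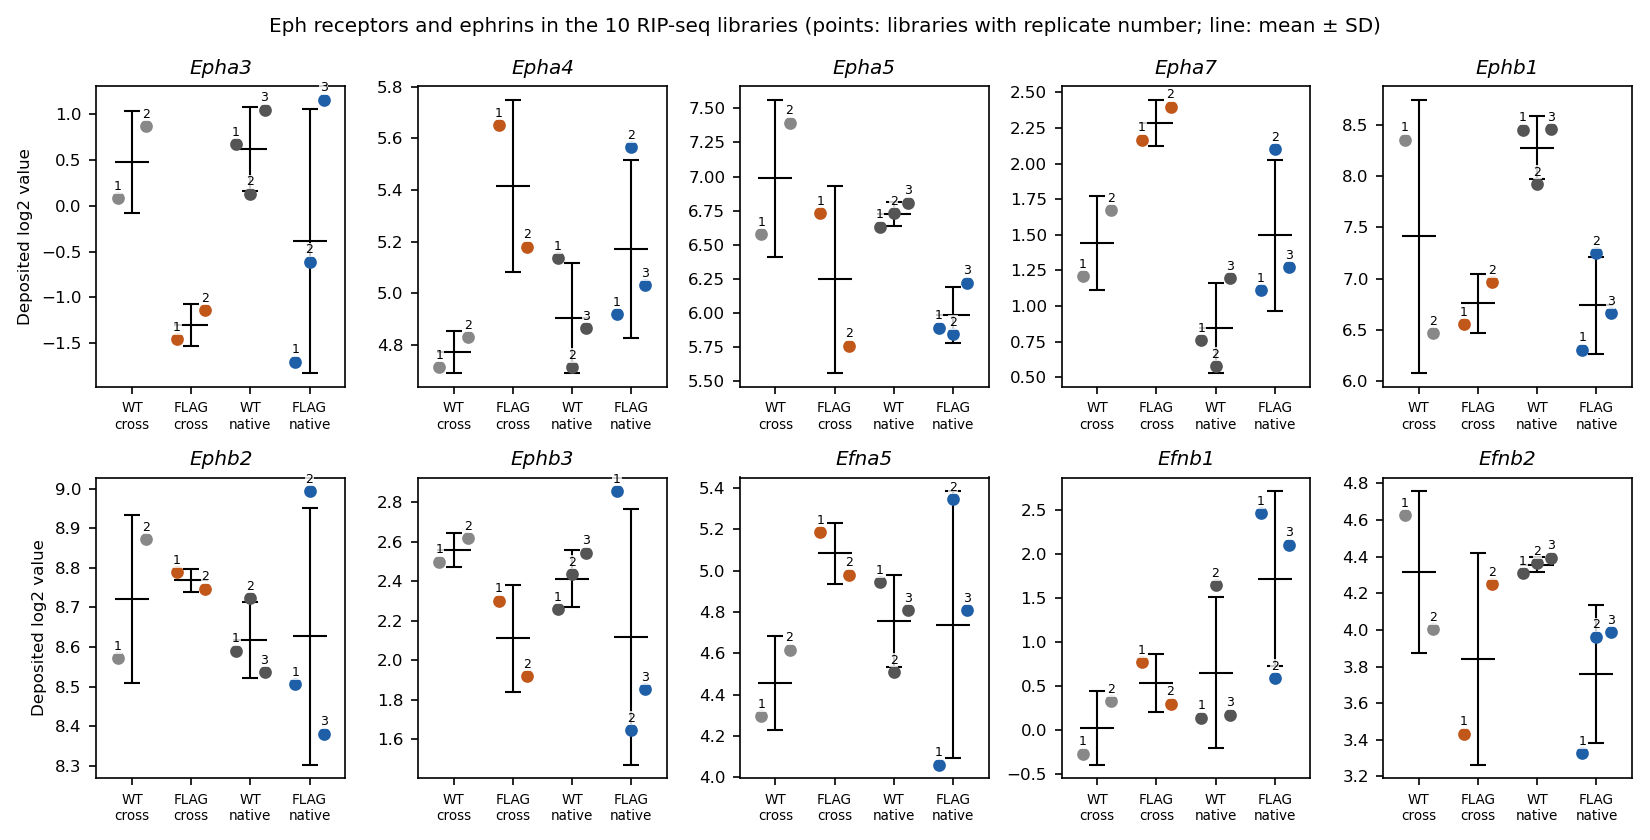
Deposited log2 value of each gene in each library (points with their replicate number), with the mean and SD of the group, for WT and FLAG after crosslinking (2 libraries each) and in native conditions (3 each). The y axis differs between panels; Ephb1 in native conditions lies at 6.31 to 7.25 in FLAG and 7.92 to 8.46 in WT.

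Among the A-class receptors, Epha5 had negative fold changes in both protocols without being called. EPHA5, on chr5:84054761-84417382, is a receptor for A-type ephrins best known from axon targeting in the forebrain. Its log2 values were 5.89, 5.84 and 6.22 in native FLAG libraries 1 to 3 and 6.63, 6.73 and 6.81 in native WT. With crosslinking they were 6.73 and 5.76 in FLAG and 6.58 and 7.39 in WT. The native groups did not overlap, whereas the crosslinked ones did, FLAG 1 lying above WT 1. The log2 fold change was -0.74 in each protocol, with an SE of 0.17 in native (adjusted p = 0.194) and 0.45 in crosslinked libraries (adjusted p = 0.763), where it ran from -1.23 to -0.25 with 1 library left out. Over all libraries it was also -0.74, with an SE of 0.20 and an adjusted p of 0.112. Without FLAG native 2 Epha5 was called in native conditions (-0.67, adjusted p = 0.0230), as were 9.12% of all genes higher and 10.8% lower. It was also called with all libraries under limma's array weights, which count scattered libraries less (-0.63, adjusted p = 0.0253, with 8.84% of all genes called higher and 10.2% lower).

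Epha3, on chr16:63543538-63864158, encodes a receptor with high affinity for ephrin-A5, and its RNA was the scarcest of the members. Values with crosslinking were -1.46 and -1.14 in FLAG against 0.08 and 0.87 in WT. In native conditions they were -1.70, -0.61 and 1.16 in FLAG against 0.67, 0.13 and 1.05 in WT. The crosslinked groups were well apart, but the native FLAG libraries spread across the whole WT range, and the value of FLAG native 1 was the lowest that library has. The log2 fold changes were -1.77 (SE 0.40, adjusted p = 0.488) with crosslinking and -1.003 (SE 0.72, adjusted p = 0.452) in native conditions, where it ran from -1.77 without FLAG native 3 to -0.34 without FLAG native 1. With a pseudocount of 8 on the linear scale the crosslinked value was -0.17 and the native one -0.085.

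Epha4 and Epha7 leaned the other way. EPHA4, on chr1:77367185-77515088, binds ephrins of both classes and is made by NSCs and astrocytes. Its values with crosslinking were 5.65 and 5.18 in FLAG and 4.71 and 4.83 in WT. In native conditions they were 4.92, 5.56 and 5.03 against 5.13, 4.71 and 4.87, so that the groups were apart only with crosslinking. Log2 fold changes were 0.64 (SE 0.19, adjusted p = 0.569) and 0.27 (SE 0.23, adjusted p = 0.519), the native one falling to 0.071 without FLAG native 2. EPHA7, on chr4:28813131-28967499, is a receptor for A-type ephrins with a known part in neural progenitor survival. Values of Epha7 were 2.17 and 2.40 in crosslinked FLAG against 1.21 and 1.67 in WT, and 1.11, 2.10 and 1.27 in native FLAG against 0.76, 0.58 and 1.20 in WT. In native conditions only FLAG 1, by a small margin, lay within the WT range. The fold change of Epha7 over all libraries was 0.73 (SE 0.23, 95% confidence interval 0.21 to 1.24), with an adjusted p of 0.143, and with a pseudocount of 8 it was 0.20, below the 0.34 of Epha4. Its native value was 0.35 without FLAG native 2.

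Of the B-class receptors, Ephb1 had the largest difference in native conditions. EPHB1, on chr9:101922128-102354693, is a receptor for B-type ephrins known from the sorting of retinal axons at the optic chiasm and from neural progenitor migration. Its values were 6.31, 7.25 and 6.66 in native FLAG and 8.45, 7.92 and 8.46 in native WT. After crosslinking they were 6.56 and 6.97 in FLAG and 8.36 and 6.47 in WT. All FLAG libraries thus lay between 6.31 and 7.25, and all WT libraries but crosslinked 2 lay at 7.92 or above. The native log2 fold change was -1.54 (SE 0.26, 95% confidence interval -2.13 to -0.95), among the lowest 1.24% of all genes, with an adjusted p of 0.105. The crosslinked one was -0.65 (SE 0.68, adjusted p = 0.851).

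Ephb1 was called under 3 of the other settings. With array weights the native value was -1.74 (adjusted p = 0.00432), with 8.84% of all genes called higher and 10.2% lower. Without FLAG native 2 these shares were 9.12% and 10.8% in native conditions. Leaving out FLAG native 2 gave -1.79 in native conditions (adjusted p = 0.00464), and leaving out WT crosslinked 2 gave -1.56 over all libraries (adjusted p = 0.00842), where 1.14% of all genes were then called higher and 1.38% lower. Without WT crosslinked 1 the crosslinked value turned to 0.29. The FLAG effect on Ephb1 differed between the protocols by -0.89 (native minus crosslinked, adjusted p = 0.970), and WT crosslinked minus WT native was -0.86 (adjusted p = 0.766). No member was called in either of these comparisons, in which 0% of all genes differed between protocols and 0.044% were called higher and 0.289% lower in crosslinked WT, nor at an unadjusted p under 0.05 with the same fold (0.233% of all genes higher and 0.182% lower in the first, 2.85% and 3.55% in the second). Reads from Ephb1 could in part be shared with Gm26846, a noncoding gene on the opposite strand that overlaps 152 nt of its exons, because the strand setting of the counting is not given in the sources used here. For no other member was a 75 nt stretch of the longest transcript shared with another gene.

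Ephb2, the member with the highest mean level over all libraries, had fold changes of 0.046 with crosslinking and 0.0093 in native conditions. EPHB2, on chr4:136647539-136835988, is a receptor for B-type ephrins that also binds ephrin-A5. The values were 8.79 and 8.75 in crosslinked FLAG against 8.57 and 8.87 in WT, and 8.51, 8.99 and 8.38 in native FLAG against 8.59, 8.72 and 8.54 in WT. FLAG and WT libraries overlapped in both protocols. The log2 fold change over all libraries was 0.02 (SE 0.12), and its 95% confidence interval of -0.25 to 0.30 did not reach the fold of 0.58 in either direction. Ephb3, on chr16:21204755-21223305, encodes a receptor for B-type ephrins with known roles in commissural axons and in the intestinal crypt. Its values were 2.30 and 1.92 in crosslinked FLAG, below the 2.50 and 2.62 of WT. In native FLAG 1 it was 2.86, above all WT libraries (2.26, 2.44 and 2.54), and in FLAG 2 and 3 it was 1.64 and 1.85, below them. The fold change over all libraries was -0.36 (SE 0.22, adjusted p = 0.354), and the native one ran from -0.66 to -0.059 with 1 library left out.

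Among the ligands, Efna5 differed between protocols in its separation but not by the test of that difference. Ephrin-A5, on chr17:62604184-62881317, is a GPI-anchored ligand of EPHA receptors and of EPHB2. Its values were 5.19 and 4.98 in crosslinked FLAG against 4.29 and 4.62 in WT. In native FLAG they were 4.06, 5.35 and 4.81, on both sides of WT (4.94, 4.51 and 4.81). The log2 fold change was 0.63 with crosslinking (SE 0.16, adjusted p = 0.507) and -0.02 in native conditions (SE 0.32, adjusted p = 0.982), and the difference of -0.64 (SE 0.46, 95% confidence interval -1.66 to 0.38) had an adjusted p of 0.970.

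Efnb2 followed Ephb1 in direction and Efnb1 did not. Ephrin-B2, on chr8:8617434-8661242, is a transmembrane ligand of EPHB receptors and EPHA4 with a known part in arterial identity and in the neurogenic niche. Its values were 3.33, 3.96 and 3.99 in native FLAG and 4.31, 4.36 and 4.39 in native WT. With crosslinking they were 3.43 and 4.25 in FLAG and 4.63 and 4.00 in WT. Native WT libraries spanned less than 0.10 on the log2 scale and all FLAG libraries lay below them, whereas the crosslinked groups overlapped. The summed level of the endothelial markers Pecam1 and Kdr was 0.21 to 0.52 in crosslinked FLAG against 1.16 to 1.34 in WT, and 0.33 to 1.63 in native FLAG against 1.17 to 1.36 in WT. Its part in the values of Efnb2 was not tested (Cldn5 and Cdh5 were not analysed here). Both markers lie near the low end of the matrix, with mean log2 values of 0.24 (Pecam1) and -0.61 (Kdr) against 4.07 for Efnb2. The native fold change was -0.60 (SE 0.23, adjusted p = 0.279) and the crosslinked one -0.47 (SE 0.37, adjusted p = 0.806), which was -0.88 without FLAG crosslinked 2 and -0.067 without FLAG crosslinked 1. Ephrin-B1, on chrX:99136130-99148991, is a transmembrane ligand of EPHB receptors. Values of Efnb1 were 2.46, 0.59 and 2.11 in native FLAG against 0.14, 1.64 and 0.18 in WT, and 0.77 and 0.30 in crosslinked FLAG against -0.27 and 0.33 in WT. In native conditions 1 library of each group crossed into the other, FLAG 2 and WT 2. The native fold change was 1.07, with an SE of 0.60 and an adjusted p of 0.364. It ran from 0.70 without FLAG native 1 to 1.63 without FLAG native 2, and was 0.26 with a pseudocount of 8. With array weights Efnb1 was called in native conditions (1.64, adjusted p = 0.0418), with 8.84% of all genes called higher and 10.2% lower.

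**Figure D4:**
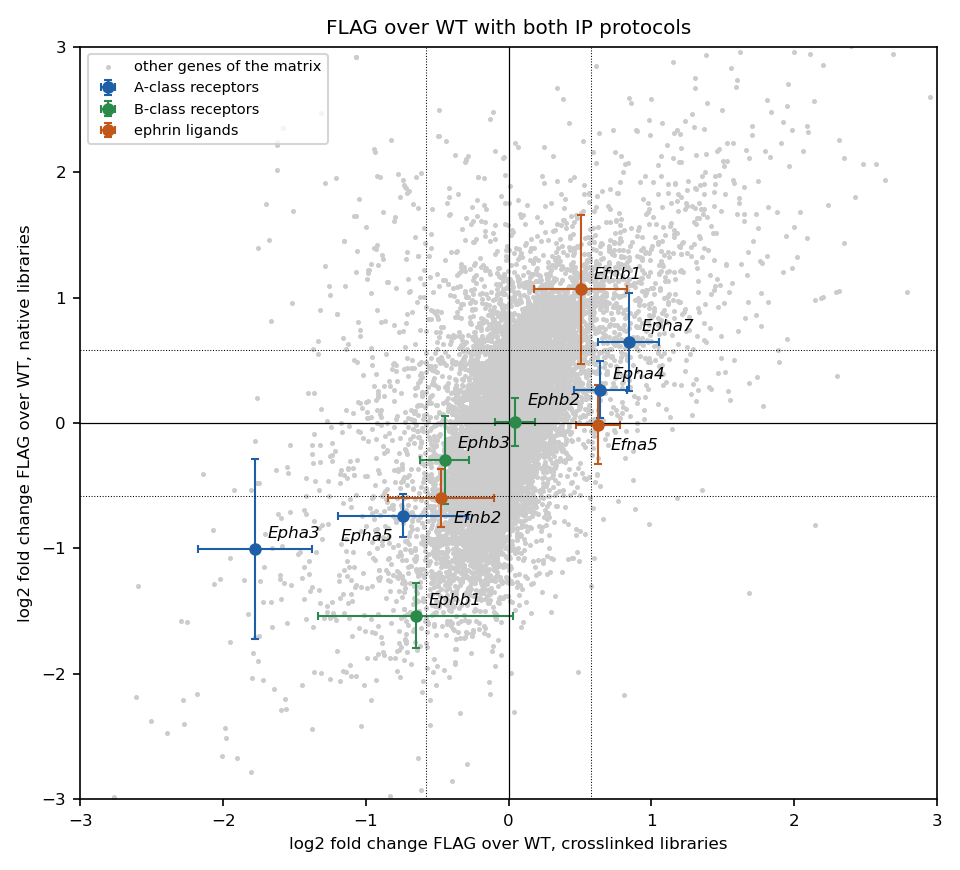
Log2 fold change of FLAG over WT with crosslinking (x axis) and in native conditions (y axis) for the members (points with SE bars, coloured by class) and for the other genes (grey, 45 genes lie outside the axes). Dotted lines mark 0.58 in either direction; Epha3, Epha5 and Ephb1 lie lowest in native conditions, and Epha4, Epha7, Efnb1 and, close to 0, Ephb2 are positive in both.

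The members are mostly very long genes, and the fold change varied with gene length across the matrix. The bodies of Epha3, Epha5, Ephb1 and Efna5 (277 to 433 kb) fall in the longest of 20 equal bins of genes, and those of Epha4, Epha7 and Ephb2 in the next. The median native log2 fold change of the genes in these bins was -0.34 and -0.29, against 0.27 for genes of 7.4 to 9.6 kb, and with crosslinking it was -0.05 and -0.04 against 0.00058. After removal of this trend from each library, the native value was -0.39 for Epha5 (adjusted p = 0.342), -1.19 for Ephb1 (adjusted p = 0.0683), 0.55 for Epha4 (adjusted p = 0.223), 0.94 for Epha7 (adjusted p = 0.257) and 0.30 for Ephb2 (adjusted p = 0.350), and no member was called. For the other members in the longest bin it was -0.66 for Epha3 (adjusted p = 0.621) and 0.33 for Efna5 (adjusted p = 0.430). Relative to genes of like length, the values of Ephb1, Epha5 and Epha3 stayed negative, that of Efna5 turned from negative to positive, and those of Epha4, Epha7 and Ephb2 were higher than without the correction.

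**Figure D5:**
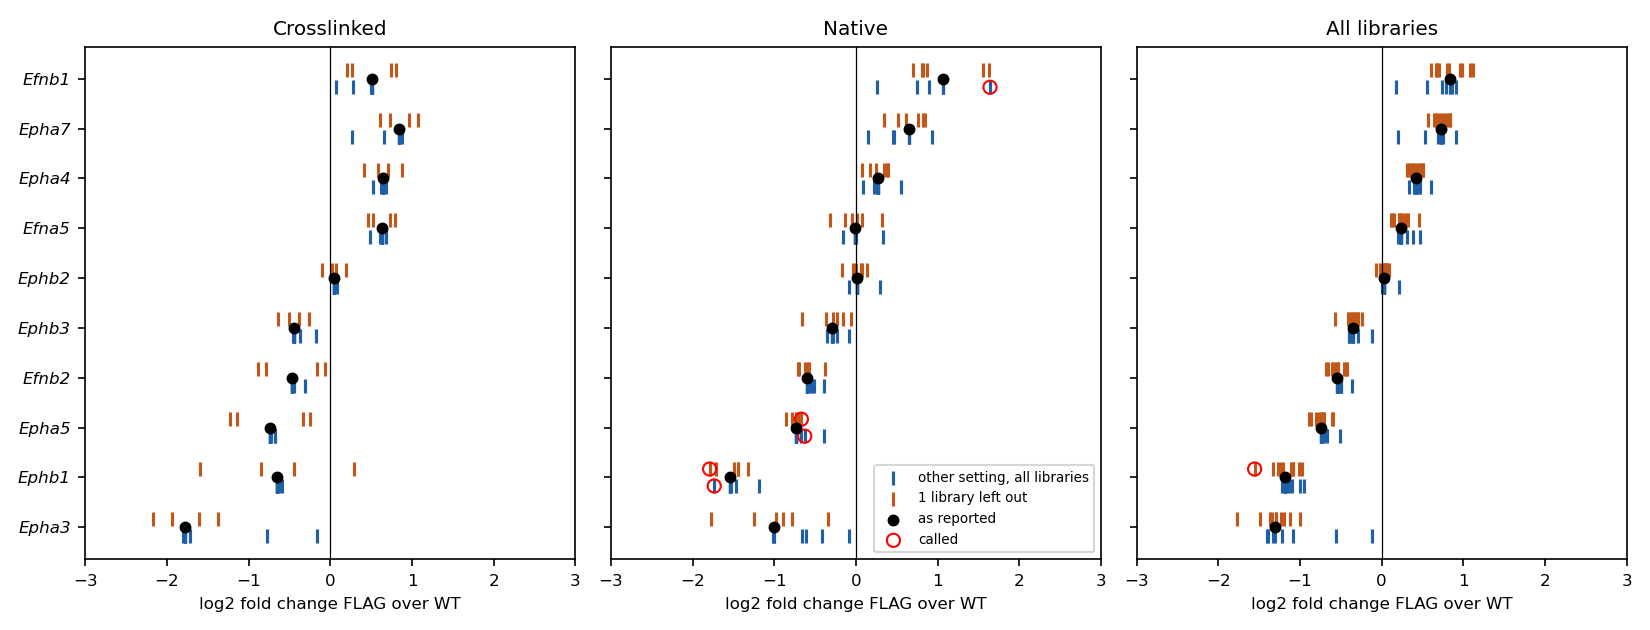
Log2 fold change of FLAG over WT (x axis) for each gene in the crosslinked, native and all libraries, as reported (black), under other settings with all libraries (blue ticks) and with 1 library left out (orange ticks). Red circles mark the settings in which the gene was called, all in Epha5, Ephb1 and Efnb1; without WT crosslinked 2 the value of Ephb1 over all libraries is -1.56.

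The other genes of the family that the matrix held were Epha1, Epha2, Ephb4, Efna4 and Efnb3, and Epha6, Epha8, Epha10, Ephb6, Efna1, Efna2 and Efna3 were not analysed here. None of the 5 was called or was separated in either protocol, and their log2 fold changes over all libraries ran from -0.25 for Epha1 to 0.43 for Efna4, with a smallest adjusted p of 0.401.

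Of 57 listed genes that act downstream of Eph receptors and ephrins, 52 were in the matrix and 0 were called in any comparison, with a median of -0.04 over all libraries (1 higher and 1 lower at an unadjusted p under 0.05 with the fold above, against 7.24% and 5.28% of all genes). By subgroup, the median was -0.03 for the kinases, -0.05 for the adaptors and scaffolds, 0.0078 for the phosphatases and 0.08 for the proteases. The 5 small GTPases, which control the cytoskeleton behind the receptors, all had positive fold changes, with a median of 0.50 that ranged from 0.35 to 0.64 under the other settings. FLAG libraries lay above WT libraries in all 5 with crosslinking (19.1% of all genes) and in 2 in native conditions (8.62%), and none of the 5 was called. Over all libraries Hras had a fold change of 0.68 (SE 0.24, adjusted p = 0.167), which was 0.16 with a pseudocount of 8. The exchange factors and GTPase-activating proteins, which switch these GTPases on and off, had a median of -0.25, and 2 of 11 were positive, but with the length trend removed the median was -0.06 and 5 were positive.

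Of 48 listed genes of the other guidance systems (semaphorins, plexins and neuropilins, Slit and Robo, netrins and their receptors), 37 were in the matrix and again 0 were called, with 3 higher and 4 lower at an unadjusted p under 0.05 with the same fold (7.24% and 5.28% of all genes). FLAG libraries lay above WT libraries in both protocols for 2 of them and below for 3 (4.84% and 4.47% of all genes). Plxna1, a semaphorin co-receptor, had a fold change over all libraries of 0.74 (adjusted p = 0.0903), and Unc5a, a netrin receptor, 1.10 (adjusted p = 0.218), or 0.56 without WT crosslinked 2, in which it was at -1.93 against 0.78 in WT crosslinked 1. The secreted netrin Ntn4 (-0.69, adjusted p = 0.0631) and the semaphorin and VEGF receptor Nrp2 (-0.95, adjusted p = 0.112) lay on the low side. Plxna1 and Ntn4 were called with array weights (adjusted p = 0.0399 and 0.0192) and without FLAG native 2 (0.0254 and 0.0343) or WT crosslinked 2 (0.0441 and 0.0495).

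Within the family, the members did not move as a unit from library to library. After centring within each protocol, the highest Pearson correlation over the 10 libraries was between Ephb1 and Efnb2 (0.85), then between Epha4 and Efna5 (0.82) and between Epha4 and Epha7 (0.79). The lowest was between Ephb1 and Efnb1 (-0.81). Receptor and ligand pairs thus stood at both ends. Others lay between, such as Epha5 with Efna5 (-0.13), Ephb2 with Efnb2 (-0.11) and Epha3 with Efna5 (0.0056). These values include the difference between FLAG and WT and the differences between single libraries. The genes most like the mean profile of the members over the 10 libraries were Ntrk2, the BDNF receptor (Pearson correlation 0.937), Ntn4 (0.928) and Gm45732 (0.920).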

How the data were processed

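The log2 values that the authors deposited cover 15899 genes in 1 matrix. By the methods, Cutadapt and Trimmomatic trimmed the reads, HISAT2 aligned them to GRCm38 and featureCounts counted them on GENCODE M16. The methods name DESeq2 for normalization and the processing notes name limma, and whole reads could not be recovered, so no count model was fitted. The deposited log2 values were tested as they are with limma 3.58.1 in R 4.3.3 (lmFit, eBayes with a trend), within each protocol, over all libraries with a covariate for the protocol, and in a fit of 4 groups for differences between protocols. P-values measure the spread between libraries, whose read depth is unknown. The fit over all libraries and the fit of 4 groups took every library as independent. If same-numbered libraries of a genotype shared a culture across protocols, these p-values do not measure the spread between cultures. The steps were tested on simulated data.

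The members and the gene lists were chosen with earlier results of these data known. All members and the family genes in the matrix were named, and listed genes were named where unadjusted p was under 0.05, the fold exceeded 0.58 and the libraries were separated in both protocols. The 3 genes most like the members had a mean log2 value of at least 2. Mex3a, the cell type markers given and Gm26846 were named outside this rule, after their values were seen. Lengths and 3' UTRs came from GENCODE M21 (15864 genes found, 14849 with the same start and end; 9 of 10 members). The motif was searched as letters, without the scores of FIMO, with Python 3.11.15, pandas 2.3.3 and pysam 0.24.0. Alternatives were pseudocounts, filters on low values, quantile normalization, array weights, 1 fit of 4 groups, the replicate block and each library left out. The deviations of same-numbered crosslinked and native libraries of 1 genotype from their group means correlated at 0.18 and 0.15 in FLAG and 0.30 and 0.39 in WT. WT crosslinked 1 also correlated with WT native 3, at 0.23. With 2 crosslinked libraries of a genotype, their deviations mirror each other, so these values are not independent. Same-numbered libraries were taken as pairs across the protocols, although the labels do not say that they shared a culture. Removal of the length trend, a crossed block, a random block of these pairs (consensus correlation 0.33) and the transcript with the longest coding sequence were alternatives chosen after seeing the data. Protein sequences were not used here.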

Additional observations from a re-analysis of the deposited data

How the results depend on the processing

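Of 469 values for members under alternative settings, 450 kept their direction and their side of the threshold, 6 became calls and 13 changed sign. With array weights, 3 members were called in native conditions, Epha5 (-0.63, adjusted p = 0.0253), Ephb1 (-1.74, adjusted p = 0.00432) and Efnb1 (1.64, adjusted p = 0.0418). These weights gave FLAG native 2 the lowest weight (0.19), and leaving that library out called Epha5 and Ephb1. With each library left out in turn, the number of members called ran from 0 to 2 in native and from 0 to 1 in all libraries. Over all genes, native calls went from 0 higher and 17 lower to 1405 and 1621 with array weights and to 1450 and 1710 without FLAG native 2, and calls over all libraries, 42 higher and 37 lower, ranged from 4 to 516 and from 7 to 219 with a library left out. The native value of Efna5 was 0.0034 with a pseudocount of 8 and 0.33 without the length trend, and -0.32 to 0.32 with a library left out. Ephb2 was -0.081 in native conditions with array weights, and with a library left out it ran from -0.17 to 0.13 in native, -0.10 to 0.20 in crosslinked and -0.074 to 0.093 in all libraries. Ephb1 ran from -1.59 to 0.29 in crosslinked libraries, its difference between protocols from -1.83 to 0.055, and its difference between crosslinked and native WT from -1.81 to 0.077. The median of the members stayed between -0.45 and 0.05 in crosslinked, -0.31 and -0.03 in native and -0.36 and -0.05 in all libraries. The gap between the highest and the lowest member per kb was 8.23 by exonic and 8.76 by coding length (log2).

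Within a protocol the replicate numbers did not pair FLAG with WT libraries, since the deviations of same-numbered libraries correlated at -0.27 with crosslinking and at -0.15, -0.43 and -0.17 in native conditions. With the replicate number as a block, 0 members were called in any comparison, and likewise with crossed numbers in the crosslinked libraries and with same-numbered libraries of a genotype as a block across protocols. That last block left Rbfox3 called (-1.33, limma adjusted p = 0.0243) and moved the genes called lower in crosslinked WT from 46 to 83. Low members are the least certain, since the read depth is unknown and FLAG native 1 and 3 have many tied low values.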
